A study of Mus musculus with 4 samples.

Results

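Neutrophils are the most abundant white cells of the marrow, and they pack their antimicrobial proteins into granules that are formed one after another as the cell matures. Primary granules are filled first, in promyelocytes, and secondary granules follow in myelocytes and metamyelocytes, whereas the proteins of the latest granules and vesicles appear in band and segmented cells. The transcripts of each granule class are made mainly during its own stage, so they are commonly used as stage markers of neutrophil development in marrow. The 10 genes Ltf, Camp, Ngp, Lcn2, Chil3, Cd177, Olfm4, Pglyrp1, Hp and Anxa1, which encode secondary and late granule proteins, were chosen by name and followed in tibial bone marrow. They are 10 of the 55401 genes in the tables and have 43 of the 142604 transcripts, and all 10 were among the 18596 genes that were tested.

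The libraries came from wild-type male C57/B6 mice that were given a high-fat diet (HFD) from the age of 8 weeks, in the control group as well as in the exercised one. The obesity group (Ob, labelled HFD) had no further treatment, and the exercised obese group (Ob + Exe, labelled HFD and Exercise) ran on a treadmill at moderate intensity for 12 weeks under the same diet. Each group has 2 libraries, and no group on a regular diet was analysed here. The study gives as many marrow samples as there are libraries and calls them representative, but the labels do not say that the libraries of a group are separate mice, so the p values measure the spread between these libraries only. The series asks how exercise remodels the marrow in diet-induced obesity, and the question here is whether the transcripts of neutrophil secondary and late granules differed with it.

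Values are FPKM (fragments scaled for transcript length and sequencing depth), summed over the transcripts of a gene and scaled between the libraries. They are per length, so levels of different genes can be compared. The reads behind them, estimated from coverage as read equivalents, numbered 53038186 and 50423542 for Ob, against 44310505 and 46668748 for Ob + Exe. The labels also carry a mesenchymal stem cell line and fibroblasts as cell type. The marker levels were instead those of blood-forming marrow, with the neutrophil gene S100a8 between 11901 and 35869 scaled FPKM and the erythroid gene Hbb-bs between 17443 and 43528. The mesenchymal markers Pdgfra (0.264 to 0.381), Lum (0.245 to 0.815) and Col1a1 (1.17 to 3.12) were near 0 beside them, and of that list of 12 genes Cxcl12 was the highest (88.4 to 142.0). In such bulk samples, fewer cells of a type and less RNA per cell cannot be told apart.

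The granule genes were among the most abundant transcripts of the marrow. Together they held 2.89% and 1.79% of the FPKM of the Ob libraries and 2.39% and 2.90% of those of the Ob + Exe libraries. By mean level over the 4 libraries, Ngp ranked 8 and Camp ranked 11 among the genes tested. Lcn2 (rank 21), Chil3 (rank 25) and Ltf (rank 29) came next, before Pglyrp1 (rank 55), Anxa1 (rank 75) and Hp (rank 138). Cd177 (rank 307) and Olfm4 (rank 838) were the lowest of the set. The ranges of each gene and the next one in this order overlapped over the libraries. Within the libraries, however, the order held more firmly. Camp was above Lcn2, Ltf above Pglyrp1, and each gene from Pglyrp1 to Cd177 above the one after it in 4 of 4 libraries, whereas Ngp was above Camp, Lcn2 above Chil3 and Chil3 above Ltf in 3 of 4.

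**Figure D1:**
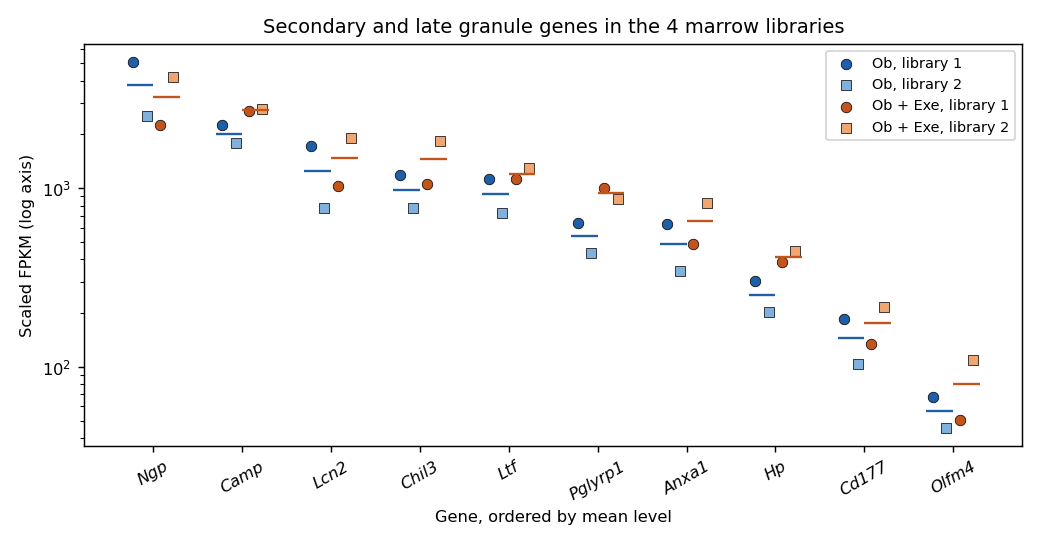
Scaled FPKM (log axis) of the 10 granule genes in each of the 4 libraries, with short lines at the mean of each group (2 libraries each). Both Ob + Exe points lie above both Ob points for Camp, Pglyrp1 and Hp, and the points of the groups overlap for the other 7 genes.

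The first group of members withholds iron or binds hemoglobin. Ltf encodes lactoferrin, an iron-binding protein of secondary granules, and its level was 1131 and 726 scaled FPKM in Ob, against 1122 and 1290 in Ob + Exe. The lowest library was an Ob library, but the other Ob library lay between the 2 Ob + Exe libraries. Ob averaged 928 ± 286 (SD, n = 2) and Ob + Exe averaged 1206 ± 119 (SD, n = 2), a log2 fold change of 0.41 ± 0.317 (standard error) with an adjusted p of 0.959 in limma. Lcn2 encodes lipocalin 2, which captures bacterial siderophores. It had 1715 and 777 in Ob, against 1034 and 1905 in Ob + Exe, so each group held one high and one low library. The spread within Ob was 2.21-fold and that within Ob + Exe 1.84-fold, against a ratio of the group means of 1.18. Hp encodes haptoglobin, which binds free hemoglobin and is stored by developing neutrophils. Its values of 303 and 203 in Ob were both below the values of 384 and 444 in Ob + Exe. Hp averaged 253 ± 70.8 (SD, n = 2) without and 414 ± 42.0 (SD, n = 2) with exercise, a ratio of 1.64. Its log2 fold change of 0.74 (95% interval 0.06 to 1.41) had an unadjusted p of 0.0374 and an adjusted p of 0.959 from limma.

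The second group attacks or recognises bacteria. Camp encodes the cathelicidin precursor, from which an antimicrobial peptide is cut, and Ngp encodes the neutrophilic granule protein, which shares the cathelin-like fold. Camp had 2252 and 1791 scaled FPKM in Ob, against 2713 and 2775 in Ob + Exe. Both Ob + Exe libraries were above both Ob libraries, with respective means of 2744 ± 43.9 (SD, n = 2) and 2022 ± 326 (SD, n = 2) and a log2 fold change of 0.45 ± 0.31 (standard error) that had an adjusted p of 0.959 in limma. Ngp behaved differently. It was 5072 and 2527 in Ob, against 2269 and 4179 in Ob + Exe, and it was the only member with a lower mean log2 value in Ob + Exe. The 2.01-fold spread between the Ob libraries was larger than the difference between the groups (log2 fold change -0.22, 95% interval -1.47 to 1.03). Pglyrp1 encodes a peptidoglycan recognition protein that binds the bacterial cell wall. Its 639 and 436 in Ob were below its 1001 and 869 in Ob + Exe, which gave the highest ratio of group means among the members, 1.74. The log2 fold change was 0.82 (standard error 0.289, 95% interval 0.11 to 1.53), with an unadjusted p of 0.0305 and an adjusted p of 0.959 from limma.

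The third group holds surface, matrix-binding and signaling proteins. Chil3 encodes Ym1, a chitinase-like lectin without chitinase activity. It was 1189 and 774 in Ob, against 1057 and 1841 in Ob + Exe, where one library exceeded all others and the other lay between the Ob libraries. Chil4, its close paralog, had at most 0.304 in any library. Cd177, a neutrophil surface glycoprotein that is also stored in secondary granules, was 185 and 103 in Ob, against 134 and 216 in Ob + Exe. Olfm4, which encodes olfactomedin 4 and marks a subset of neutrophils, was 67.7 and 45.4 in Ob, against 50.3 and 109 in Ob + Exe. Anxa1 encodes annexin A1, a ligand of formyl peptide receptors that limits inflammation. Its values were 632 and 344 in Ob, against 486 and 822 in Ob + Exe. For Chil3, Cd177, Olfm4 and Anxa1 the groups overlapped, their log2 fold changes were 0.54, 0.30, 0.42 and 0.44, and all of their 95% intervals included 0. The adjusted p values of the 10 members in limma ranged from 0.959 to 0.980.

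No member was called at the thresholds of the study, an unadjusted p under 0.05 together with a log2 fold change beyond 1, at which 3.74% of the genes tested were called in limma (1.0% higher and 2.74% lower in Ob + Exe). Quantile normalization moved the split over all genes from 186 higher and 510 lower to 246 higher and 416 lower, and again called no member. At an unadjusted p under 0.05 alone, 2 members (Pglyrp1 and Hp) passed, both with the higher mean in Ob + Exe, while 5.05% of all genes passed, 1.58% in that direction. Limma voom on read equivalents also called no member and had an unadjusted p under 0.05 for the same 2 genes. The groups did not overlap for 3 members (Camp, Pglyrp1 and Hp), each with Ob + Exe above Ob, as was the case for 14.3% of all genes tested. No member was below, against 18.3% of all genes. Means were higher in Ob + Exe for 9 of 10 members, with a median log2 fold change of 0.43, beside 48.3% of all genes and a median of -0.02. Among the 520 genes with a mean of at least 100 scaled FPKM, 60.4% were higher and the median was 0.06. The count of 9 depended on single libraries. It was 10 without Ob library 1 or Ob + Exe library 1, but 7 without Ob library 2 and 6 without Ob + Exe library 2, and the median log2 fold change was 0.79, 0.72, 0.11 and 0.10 in that order. With 2 libraries against 2, an exact permutation test of a single gene cannot give a two-sided p below 0.333, the value found for Camp, Pglyrp1 and Hp.

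**Figure D2:**
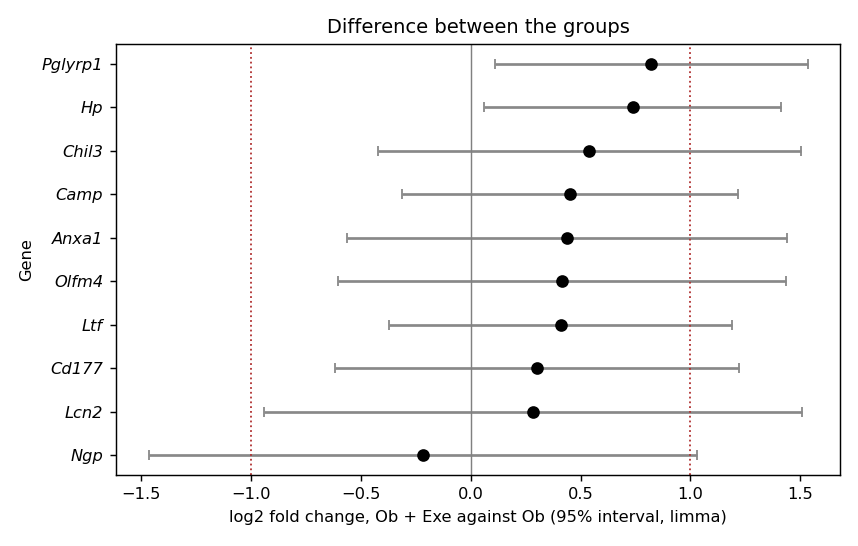
log2 fold change of each granule gene, Ob + Exe against Ob, with 95% intervals from limma (n = 2 per group); dotted lines mark a log2 fold change of -1 and 1. Only the intervals of Pglyrp1 and Hp lie above 0, and every point lies between the dotted lines.

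By median ratio, the granule genes differed more between single libraries of the same group than between the group means. Ob library 1 exceeded Ob library 2 for 10 of 10 members, with a median ratio of 1.55, and Ob + Exe library 2 exceeded Ob + Exe library 1 for 9 of 10, with a median ratio of 1.65. The exception was Pglyrp1. The median ratio of the group means was smaller, at 1.35, but means of 2 libraries vary less than single libraries. For 5 of the 10 members, the difference between the mean log2 values of the groups was larger than the pooled SD within the groups. Ob library 2 had the lowest value of all 4 libraries for 9 members, and Ob + Exe library 2 had the highest for 8. Ngp was lowest in Ob + Exe library 1 and highest in Ob library 1. Across all genes tested, the median log2 difference between the libraries of a group was 0 in both groups. The scaling centres this median near 0, so it does not show how far other genes varied. Summed over the 10 genes, the scaled FPKM was 13186 and 7727 in Ob, against 10251 and 14450 in Ob + Exe, and the groups overlapped.

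**Figure D3:**
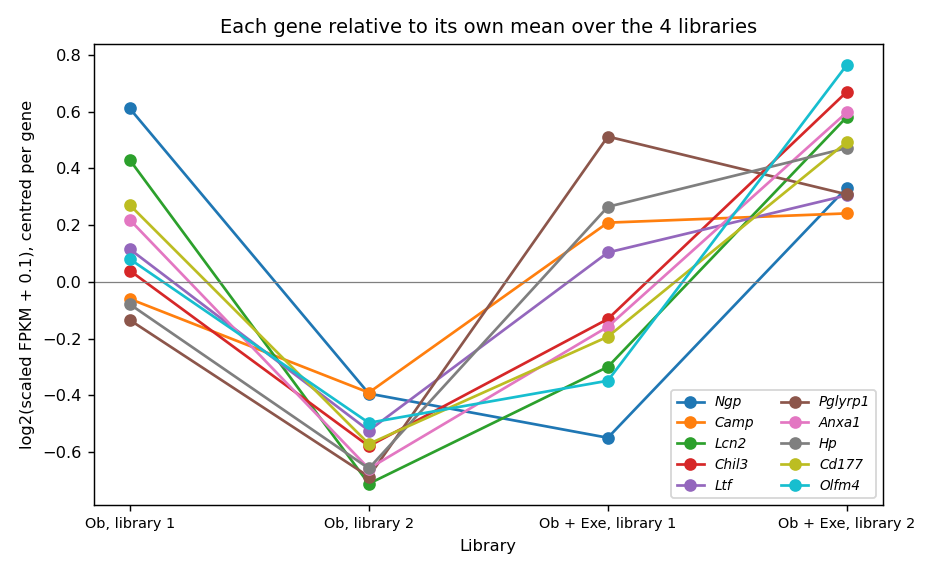
log2(scaled FPKM + 0.1) of each granule gene minus its mean over the 4 libraries; lines join the points of 1 gene and the libraries have no order. All genes are low in Ob library 2, and all are above their mean in Ob + Exe library 2, while Pglyrp1 and Ngp part from the others in Ob + Exe library 1.

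The make-up of this sum also differed between the libraries. Ngp held 38.5% and 32.7% of the summed FPKM of the 10 genes in Ob, against 22.1% and 28.9% in Ob + Exe, so the Ob + Exe shares were the lower ones. Pglyrp1 held 4.85% and 5.64% in Ob, against 9.77% and 6.02% in Ob + Exe. For Hp the shares were 2.30% and 2.62% in Ob against 3.75% and 3.07% in Ob + Exe, and for Chil3 they were 9.02% and 10.02% against 10.3% and 12.7%. The shares of these 4 genes did not overlap between the groups and those of the other 6 did. For levels, 32.6% of all genes tested were without overlap in either direction. Camp held from 17.1% to 26.5%, with the highest share in Ob + Exe library 1 and the lowest in Ob library 1. The ratio of Ngp to Ltf was 4.49 and 3.48 in Ob, against 2.02 and 3.24 in Ob + Exe. The ratio of Pglyrp1 to Ngp was 0.126 and 0.173 in Ob, against 0.441 and 0.208 in Ob + Exe. These ratios were picked after the values were seen, and no test was made of them.

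**Figure D4:**
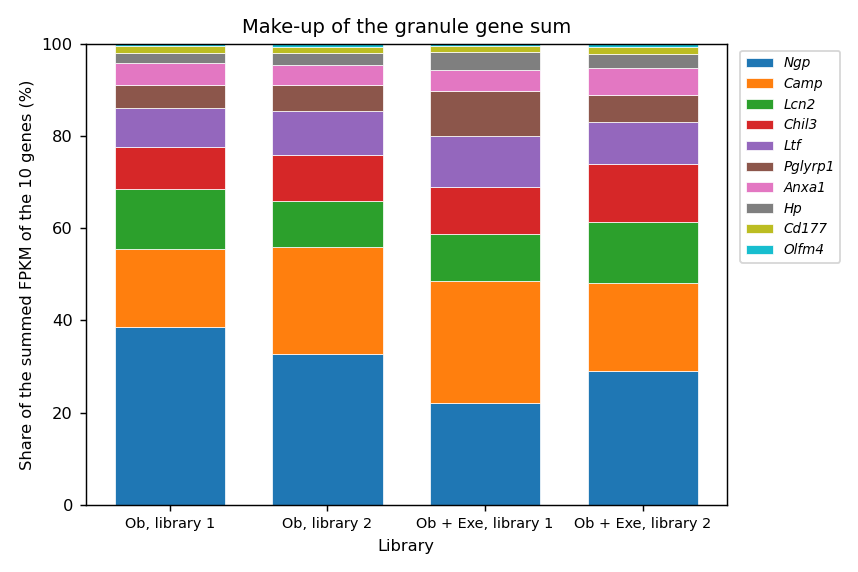
Share (%) of each granule gene in the summed scaled FPKM of the 10 genes, 1 bar per library, adding up to 100%. The Ngp part runs from 22.1% in Ob + Exe library 1 to 38.5% in Ob library 1, and the Pglyrp1 part is largest in Ob + Exe library 1.

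Camp, Ngp and Ltf lie close together on chromosome 9 of GRCm38. Camp (ENSMUSG00000038357.10, minus strand, chr9:109847379-109849617), Ngp (ENSMUSG00000032484.8, plus strand, chr9:110419747-110423012) and Ltf (ENSMUSG00000032496.7, plus strand, chr9:111019271-111042767) span 1.2 Mb, in which 24 genes were tested. The log2 fold changes of these neighbours were 0.45, -0.22 and 0.41. The others lie apart: Lcn2 (ENSMUSG00000026822.14) at chr2:32384633-32388252, Chil3 (ENSMUSG00000040809.10) at chr3:106147554-106167564 and Olfm4 (ENSMUSG00000022026.7) at chr14:79984081-80023139. Pglyrp1 (ENSMUSG00000030413.7) at chr7:18871331-18890459 and Cd177 (ENSMUSG00000052212.6) at chr7:24743983-24760311 share a chromosome. Hp (ENSMUSG00000031722.10) is at chr8:109575128-109579172 and Anxa1 (ENSMUSG00000024659.15) at chr19:20373428-20390944. Of the annotated genes that overlap a member, Gm6999 in Olfm4 was listed at 0 in all libraries and 1500015L24Rik in Anxa1 had at most 0.299 scaled FPKM.

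C/EBP transcription factors, C/EBPε above all, are known to be needed for secondary granule gene expression, so the promoter letters were read for them. RefSeq promoters of GRCm38.p6, from 250 bases before to 50 bases after the start of the gene, were found for 9 of the 10 members (not for Hp). The motif TTGCNNAA, searched on both strands, occurred in 4 of the 9 windows (Ltf, Ngp, Lcn2 and Anxa1) and in 10.8% of all 32851 promoters of that length. The stretches upstream of the first annotated start are shown for the chromosome 9 genes, in the direction of the gene from 5′ to 3′, with the match in capitals. They cover chr9:111019042-111019270 for Ltf, chr9:110419558-110419746 for Ngp and chr9:109849618-109849706 for Camp. No match is in the window of Camp. The start of its annotated transcript lies 161 bases upstream of its RefSeq start, however. Only 89 bases of the window precede that transcript, and the bases before them were not searched.
Ltf: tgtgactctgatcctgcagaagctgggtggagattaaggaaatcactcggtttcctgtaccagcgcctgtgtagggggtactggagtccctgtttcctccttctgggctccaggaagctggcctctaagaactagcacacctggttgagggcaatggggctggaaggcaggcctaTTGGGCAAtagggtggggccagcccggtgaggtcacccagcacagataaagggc
Ngp: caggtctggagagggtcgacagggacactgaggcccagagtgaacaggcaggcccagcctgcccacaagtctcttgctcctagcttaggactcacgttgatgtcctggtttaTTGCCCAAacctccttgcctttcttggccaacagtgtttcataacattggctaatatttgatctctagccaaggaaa
Camp: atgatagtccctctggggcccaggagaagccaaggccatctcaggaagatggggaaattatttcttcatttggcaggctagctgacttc

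The matches of Ltf and Ngp read the same core on opposite strands, at 75 bases before the RefSeq start in Ltf and at 138 bases before it in Ngp. Ngp holds another match next to its RefSeq start, and the matches of Lcn2 and Anxa1 are shown with the bases around them for comparison. They lie at chr9:110419786-110419815, chr2:32387937-32387966 and chr19:20390796-20390825, inside the annotated bounds of these genes. For Lcn2 this holds only through ENSMUST00000192241.1, which had at most 0.113% of the FPKM of the gene. The main Lcn2 transcript starts at chr2:32387797, so the match lies upstream of it.
Ngp: accggcagttcTTGGGCAAggcagtctcaa
Lcn2: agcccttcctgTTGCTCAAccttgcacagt
Anxa1: tccgggagtagTTTTGCAAgacttgtttct

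The groups overlapped for all 4 genes with a C/EBP match, and none of them passed the test. Of the genes whose windows hold no match, the groups overlapped for Chil3, Cd177 and Olfm4. For Camp and Pglyrp1, whose windows hold none either, both Ob + Exe libraries were above both Ob libraries. Over all genes tested, 32.6% were without overlap. A link between the matches and the levels was not tested. For 6 of the 9 windows the letters GAGGAA, the core bound by PU.1, were found, beside 28.3% of all promoters, and TATAAA was found in 3 of the 9 (Chil3, Cd177 and Anxa1), beside 13.6%. The motif E-box (CANNTG) was in 6 of the 9 and in 72.3% of all promoters, and the GATA letters AGATAA were in 3 of the 9 and in 11.2%. The start of the main Anxa1 transcript lies 273 bases upstream of its RefSeq start, so the whole window falls inside that transcript. In Chil3 the TATAAA letters begin 3 bases before the RefSeq start. These are matches of letters, not sites shown to be bound.

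The transcription factors of granulopoiesis were read from a list of 9 genes, none of which was called. Cebpe, which encodes C/EBPε, had 57.5 and 44.3 scaled FPKM in Ob, against 71.5 and 68.5 in Ob + Exe (log2 fold change 0.47, unadjusted p = 0.0763 in limma). Cebpd was 28.0 and 25.2 in Ob, against 32.9 and 39.6 in Ob + Exe. For both genes and for Klf5, named after its values were seen, the Ob + Exe libraries were above the Ob libraries. That is 3 of the 9, with 0 below, beside 14.3% above and 18.3% below over all genes tested. Spi1, which encodes PU.1, was 91.4 and 59.4 against 71.9 and 91.6, with overlap, as were Cebpb (67.4 and 83.3 against 73.4 and 96.5) and Irf8 (41.6 and 42.8 against 49.9 and 28.8).

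A list drawn up for other secondary, tertiary and late granules, with 38 of its 40 genes tested, had a median log2 fold change of 0.35. Of these, 32 were higher and 6 lower in Ob + Exe. The list also holds genes whose proteins are not granule contents, such as Hdc. Of these 38, 11 lay above Ob in both Ob + Exe libraries and none below, beside 14.3% and 18.3% of all genes tested. Of the 38, 1 was called higher, beside 1.0% of all genes. It was Hdc, which encodes the enzyme that makes histamine (43.5 and 31.5 in Ob, 69.1 and 95.4 in Ob + Exe, log2 fold change 1.13). The next nearest were Wfdc21 (518 and 347 in Ob, 843 and 800 in Ob + Exe, log2 fold change 0.95, unadjusted p = 0.0157) and the metalloprotease gene Adam8, singled out after its values were seen (39.3 and 48.0 in Ob, 90.6 and 68.2 in Ob + Exe, unadjusted p = 0.0123). The lysozyme gene Lyz2 (2671 and 1731 in Ob, 2412 and 4013 in Ob + Exe) and Retnlg (1746 and 893 in Ob, 1550 and 2676 in Ob + Exe) had the levels and the uneven libraries of the members. Ifitm6 (log2 fold change 0.68) and Fcer1g (-0.04) complete the 5 most abundant genes of that list. Of the 38 genes, 35 were higher in Ob library 1 than in Ob library 2, and 31 were higher in Ob + Exe library 2 than in Ob + Exe library 1.

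Primary granule genes shared the low values of Ob library 2 but not the high values of Ob + Exe library 2. All 12 were tested and none was called, 11 being higher and 1 lower in Ob + Exe, with a median log2 fold change of 0.26. Ob library 1 was above Ob library 2 for 12 of 12, whereas Ob + Exe library 2 was above Ob + Exe library 1 for 3 of 12, beside 9 of 10 of the secondary and late granule genes. Elane, which encodes neutrophil elastase, was 434 and 200 in Ob, against 389 and 347 in Ob + Exe. Prtn3, the proteinase 3 gene, was 324 and 240 against 512 and 240, and Mpo, the myeloperoxidase gene, was 308 and 161 against 286 and 185. Srgn (log2 fold change 0.43) and Cd63 (0.35) were the other abundant genes of the list. The sum of the 10 members was 7.29 and 7.2 times the sum of the primary granule genes in Ob and 5.26 and 9.55 times in Ob + Exe. The Ob + Exe libraries thus lay on either side of the Ob libraries in this ratio.

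Genes of mature neutrophils, all 22 of which were tested, had a median log2 fold change of 0.45, with 20 higher and 2 lower in Ob + Exe. Of the 22, 5 were called, all higher, beside 1.0% of all genes: Il1b (24.1 and 25.5 in Ob, 56.9 and 69.2 in Ob + Exe), Clec4d, Il1r2, Clec4e and Hcar2, with log2 fold changes from 1.11 to 1.35. S100a8 (20818 and 11901 in Ob, 16107 and 35869 in Ob + Exe) and S100a9 (17053 and 9595 in Ob, 11690 and 18288 in Ob + Exe), which encode calprotectin, had the same order of libraries as Lcn2 and Chil3, and their groups overlapped. Retnlg, whose values are given above, Grina (log2 fold change 0.08) and Msrb1 (0.36) are the remaining abundant genes of the list. Retnlg, Mmp9, Fpr1 and Trem1 are both on this list and on the one for other granules, so the lists are not separate sets. The receptors and partners of the member proteins gave 13 tested genes and no call. Fpr2, a formyl peptide receptor for annexin A1, was 160 and 125 in Ob, against 168 and 239 in Ob + Exe, and Mmp9, whose protein binds lipocalin 2, was 176 and 79.7 against 106 and 199. The integrin chain Itgb2 (log2 fold change 0.18) and S100a11 (0.23), a binding partner of annexin A1, overlapped between the groups. Lrp2, which encodes the lipocalin receptor megalin, was listed at 0 in every library.

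By likeness of profile, the gene nearest to the mean of the members over the 4 libraries was Cr1l (35.1 and 21.7 in Ob, 30.2 and 44.2 in Ob + Exe), followed by Ceacam1, Ets1, Pla2g7 and Dhrs7, among 5790 other genes with a mean of at least 10 scaled FPKM. Likeness was the Euclidean distance between centred log2 values, and these 5 genes had distances of 0.0248 to 0.104. Of the members themselves, Cd177 was the nearest to that mean (0.182) and Ngp the farthest (0.711), and 33 and 2065 other genes, respectively, were nearer than they were. With 4 libraries this is a description only.

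The markers of other cells were followed beside these values. Over all genes tested, 2.74% were called lower and 1.0% higher. Of 10 B cell markers 9 had the lower mean in Ob + Exe and 2 were called lower, Cd79a and Igll1. Their summed scaled FPKM was 216 and 228 in Ob, against 173 and 140 in Ob + Exe. All 10 megakaryocyte and platelet markers had the lower mean (4 called lower, Treml1, Gp5, Gp1bb and Gp1ba), with sums of 502 and 372 in Ob, against 399 and 152 in Ob + Exe, and so were all 8 endothelial markers, with sums of 20.9 and 19.9 against 17.4 and 12.9. In the opposite direction, all 6 tested skeletal muscle markers were higher (sums of 11.2 and 7.64 against 16.2 and 15.5, Acta1 called), as were 7 of 10 eosinophil, basophil and mast cell markers (229 and 163 against 202 and 321, Prg2 called). The erythroid sum was 73140 and 72894 in Ob, against 54031 and 82151 in Ob + Exe, and the sum of 12 monocyte and macrophage markers was 593 and 533 in Ob, against 534 and 600 in Ob + Exe. Of the 15 proliferation genes, 12 had the lower mean and none was called. Col1a1 was called lower among the 12 mesenchymal markers, and Bglap2, listed at 0 in Ob + Exe library 1, was called lower among 6 tested osteoblast markers (1.12 and 3.39 in Ob, 0 and 0.721 in Ob + Exe). No defining marker of these cell types was listed at 0 in every library, except Sost among the osteoblast markers and Lep among the adipocyte markers. The number of read equivalents was lower in both Ob + Exe libraries as well. The sums of the megakaryocyte and platelet, the eosinophil, basophil and mast cell, the erythroid, and the monocyte and macrophage markers overlapped between the groups. Those of the B cell, endothelial and skeletal muscle markers did not. For levels, 32.6% of all genes tested were without overlap. The part of these differences in the values of the granule genes was not tested.

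The transcripts of the members showed a further difference between the libraries. The 43 transcripts have the same coordinates in GENCODE vM21, which types 20 of them as protein coding and 13 as retained introns, that is, as transcripts that keep an intron. StringTie assigns the reads of a gene among its transcripts, so these shares are estimates. Of the 6 members with such a transcript, 5 shared a split of the libraries. The share of the gene's FPKM on retained introns was higher in Ob library 2 and Ob + Exe library 1 than in the others. Ob library 2 and Ob + Exe library 1 also had the lower summed levels of the 10 genes. The share has the gene's own level as its divisor, so it is not independent of that level. For Ltf the share was 1.92% and 3.05% in Ob, against 4.84% and 2.21% in Ob + Exe. In Lcn2 it was 1.29% and 2.83% against 3.91% and 2.08%, and in Cd177 it was 2.48% and 3.54% against 5.28% and 3.17%. Chil3 (0.488% and 0.883% against 1.0% and 0.531%) and Anxa1 (3.82% and 9.77% against 8.51% and 2.63%) had the same split, and Pglyrp1 the opposite one. Among the 5 genes with this split, the share was highest in Ob + Exe library 1, except for Anxa1, where Ob library 2 was highest. Among 3774 genes with a retained-intron transcript and a mean FPKM of at least 10, 20.5% had this split of the libraries and 17.2% the opposite. Their median share was 4.89% and 5.11% in Ob, against 5.07% and 4.58% in Ob + Exe.

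Anxa1 also differed in its main transcript. ENSMUST00000025561.7, a protein-coding transcript with 13 exons, held 84.0% and 85.4% of the FPKM of the gene in Ob, but 49.0% and 74.2% in Ob + Exe. In Ob + Exe library 1, 42.5% was assigned to ENSMUST00000171423.8, a transcript with 14 exons that is typed as a target of nonsense-mediated decay (NMD), beside 9.95% and 3.74% in Ob and 9.66% in the other Ob + Exe library. In scaled FPKM this transcript had 62.9 and 12.9 in Ob, against 207 and 79.4 in Ob + Exe. Taken alone, the main transcript of Anxa1 had a log2 fold change of -0.052, whereas the sum over all transcripts had 0.44. The other Ob + Exe library held 11.9% on ENSMUST00000235280.1, also protein coding, which had at most 0.972% elsewhere. Camp and Ngp have only 1 annotated transcript each, so their values do not depend on how reads were divided.

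**Figure D5:**
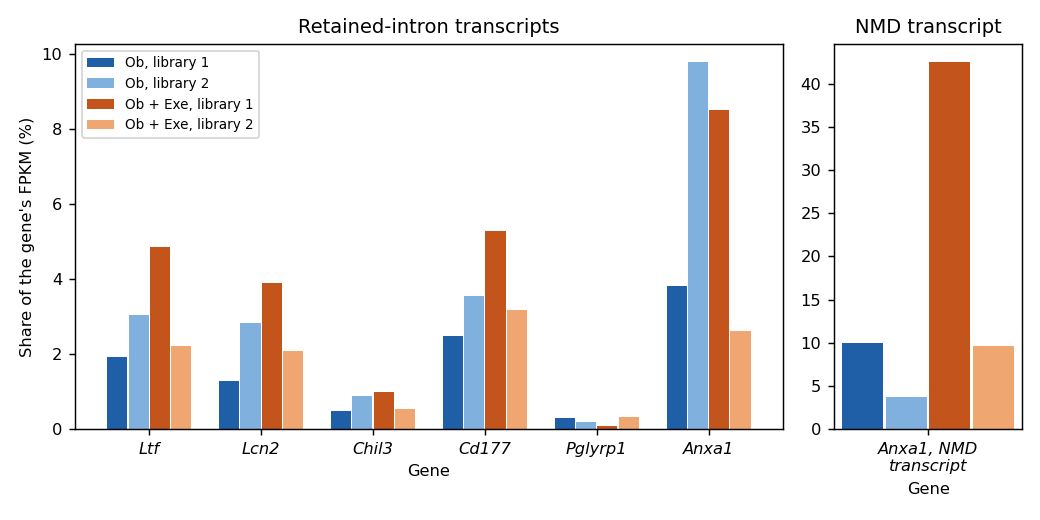
Share (%) of a gene's FPKM on retained-intron transcripts in 6 granule genes (left) and on the NMD transcript of Anxa1 (right), 1 bar per library; the axes of the panels differ. The shares in Ob library 2 and Ob + Exe library 1 exceed those in the other libraries for 5 of the 6 genes, and the NMD transcript stands at 42.5% in Ob + Exe library 1.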

How the data were processed

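RNA-seq of bone marrow was examined in 2 Ob and 2 Ob + Exe libraries. Per the methods of the study, poly-A mRNA was enriched, reads were cleaned with fastp, reads matching rRNA were removed, the rest were aligned to GRCm38 with HISAT2 and filtered with SAMtools, and GENCODE vM25 transcripts were quantified with StringTie. The authors deposited, for each library and transcript, the FPKM and the coverage (a signal not scaled for depth). The strand setting is not given in the sources used here. Read equivalents are coverage times length over the read length.

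FPKM were summed to genes. Genes with a mean of at least 0.1 FPKM were kept and scaled with median-of-ratios factors from 0.945 to 1.04. log2(FPKM + 0.1) was tested with limma 3.58.1 in R 4.3.3 (intensity trend, 2 residual and 3.79 prior degrees of freedom), with Benjamini-Hochberg adjustment over all genes tested. The scale understates changes of low genes. The authors used DESeq2, which takes read counts that FPKM do not give. The members, gene lists and tests were chosen with earlier results of these data known. Named genes are the members, the called genes of each list, the 5 most abundant of the granule and neutrophil lists, and the 5 nearest in profile. Markers of the label check (S100a8, Hbb-bs, Pdgfra, Lum, Col1a1 and Cxcl12) came from the marker lists, and any other gene named was chosen after its values were seen. Python 3.11.15 with pandas 2.3.3 read the tables and matplotlib 3.10.9 drew the figures. Only 2 libraries per group limit the precision, not the depth of these abundant genes.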

Additional observations from a re-analysis of the deposited data

How the results depend on the processing

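The alternatives were other pseudocounts, filters and scalings, the replicate block, a fit with no intensity trend, voom on the read equivalents, the most abundant transcript alone and leaving out each library. The crossed block and the adjusted p as the call were chosen after seeing the data. No member was called under any of the 17 alternatives. Of 170 member values, 162 kept their direction, but many of these were bound to. The other filters, the fit with no trend, both blocks and the adjusted p as the call cannot change a log2 fold change. Their agreement was thus fixed in advance. Reversed were Anxa1 with the most abundant transcript alone (-0.052) and some values with 1 library left out, over which the log2 fold change ran from -0.72 to 0.29 for Ngp, from -0.29 to 0.85 for Lcn2, from -0.12 to 0.72 for Cd177 and from -0.14 to 0.97 for Olfm4.

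Over all genes, 696 were called (186 higher, 510 lower). The numbers were 222 (73 and 149) with a pseudocount of 1, 270 (94 and 176) with a minimum mean FPKM of 1, and 427 (301 lower) with voom, where 707 genes had an unadjusted p under 0.05 and 0 an adjusted one. There were 1060 (784 lower) without the trend, 818 lower without a filter and 344 higher with the most abundant transcript alone. By adjusted p under 0.05 in limma, 0 genes were called (0 higher, 0 lower), beside 940 at an unadjusted p under 0.05. With 1 library left out, calls ran from 744 to 1920 (94 to 650 higher, 650 to 1270 lower), which assumes that a lone library varies like the others. Without scaling the median of all genes shifted to -0.10, and the members' median was 0.34. The replicate numbers are shared by label only, and the deviations of same-numbered libraries from their group means correlated at -0.106 across all genes tested and at -0.235 across the 12409 with a mean FPKM of at least 1. With the replicate block, 742 genes were called (18 with an adjusted p under 0.05) and Hp lost its unadjusted p under 0.05. The median of the members was 0.43 as before, which the block cannot change. Without scaling and with the most abundant transcript alone, Hp also had no unadjusted p under 0.05 in limma. With the crossed block 803 were called (11 with an adjusted p under 0.05). Pglyrp1 and Hp lost an unadjusted p under 0.05 whenever a library was left out, without a filter and without the trend. Their adjusted p in limma ran from 0.335 to 1.0 over the alternatives.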

Other observations

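Set against S100a8 in the same library, Camp stood at 0.108 and 0.151 in Ob and at 0.168 and 0.0774 in Ob + Exe, and Ngp stood at 0.244 and 0.212 in Ob and at 0.141 and 0.117 in Ob + Exe. The ratio of Ngp was thus lower in both Ob + Exe libraries, while that of Camp overlapped. The sum of the 10 members was 1.61 and 1.51 times the sum of the list for other secondary, tertiary and late granules in Ob. In Ob + Exe it was 1.33 and 1.24 times that sum. The sum of the 10 members was 0.319 and 0.324 times the sum of the mature neutrophil genes in Ob and 0.329 and 0.244 times in Ob + Exe. These ratios were chosen after the values were seen, and no test was made of them.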
